A study of Mus musculus with 18 samples.

Results

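Primary hepatocytes (MPH) were compared with biliary epithelial cells (BECs), both isolated from the livers of mice with a ligated bile duct (BDL), a surgical block of bile flow. The comparison took the 3 MPH BDL and the 3 BECs BDL libraries of the 18 libraries in the series. It covered every gene with a level of at least 1 FPKM (sequenced fragments relative to transcript length and library size) in at least 3 of these 6 libraries. Of the 54532 genes in the deposited table, 13474 met this rule. The 1821 genes that reached an FPKM of 1 in exactly 3 libraries had a median mean level of 1.53 FPKM, and the 1015 genes that reached it in exactly 2 had a median of 0.843 FPKM. MPH and BECs from sham-operated mice (Sham, 3 libraries each) served to ask where the difference between the cell types was not the same with and without ligation. Polyadenylated RNA from liver cells was sequenced in all groups. The sources used here state no strain, age, time after ligation or way of isolating the cells. They also leave unsaid whether libraries of a group are separate mice, so p-values measure only the spread between these libraries. Replicates 1 to 3 are named in accession order.

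Hepatocytes make most plasma proteins, handle nitrogen, glucose, lipid and drugs, and turn cholesterol into bile acids that they conjugate and pump into the canaliculus. Biliary epithelial cells line the ducts that carry this bile away and adjust its water, chloride and bicarbonate. The cell types descend from a common embryonic precursor, and Notch signals together with Sox9 take part in the biliary choice, while Hnf4a maintains the hepatocyte programme. Blocked ducts are known for a ductular reaction, in which biliary cells multiply, signal to inflammatory cells and fibroblasts and become surrounded by scar.

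Each preparation carried the transcripts of its label. Alb, which encodes the albumin of plasma, stood at 32219, 39277 and 75553 FPKM in MPH replicates 1 to 3 and at 392, 292 and 69.0 FPKM in BECs replicates 1 to 3. Krt19, a duct cell keratin, stood at 7.47, 7.48 and 15.4 FPKM in MPH and at 291, 384 and 459 FPKM in BECs. The groups were far apart for both genes. The 18 hepatocyte markers summed to 78799 to 136750 FPKM in MPH and 253 to 984 in BECs, and the 18 biliary markers to 80.3 to 104 in MPH and 3622 to 4086 in BECs. A single hepatocyte marker in BECs had a median of 0.899% of its mean MPH level, from 0.261% for Apoa1 to 6.54% for Hnf4a. A biliary marker in MPH had a median of 1.37% of its BECs level. The lowest was 0.0964% for Grhl2, and Sox9 was among the higher at 10.4%. In bulk RNA a few cells of the other type and a low level in every cell cannot be told apart.

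**Figure D1:**
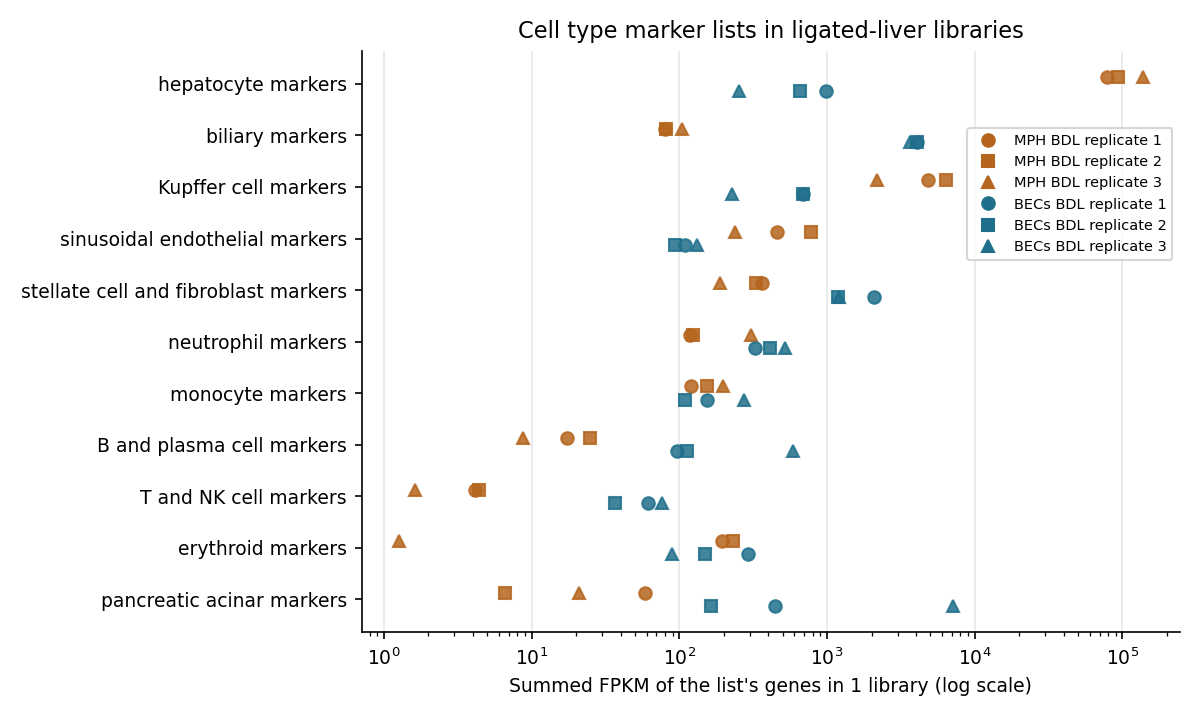
Summed FPKM of each cell type marker list in each of the 6 ligated-liver libraries, on a log axis, with 1 point per library. The hepatocyte sum lay at 78799 to 136750 FPKM in MPH and 253 to 984 in BECs, Kupffer cell markers were higher in all MPH libraries, stellate and T cell markers in all BECs libraries, and pancreatic acinar markers reached 7084 FPKM in BECs replicate 3.

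Other liver cells were unevenly present. Clec4f, a lectin receptor of Kupffer cells, stood at 669, 587 and 218 FPKM in MPH and at 4.62, 11.2 and 0.708 FPKM in BECs. The 12 Kupffer cell markers summed to 2177 to 6432 FPKM in MPH and 226 to 690 in BECs, against 2911 to 18450 in the Kupffer-like cells of the series. Sinusoidal endothelial markers summed to 240 to 781 FPKM in MPH and 93.3 to 131 in BECs. The stellate cell and fibroblast list went the other way, with 189 to 365 FPKM in MPH and 1189 to 2072 in BECs. T and NK cell markers summed to 1.63 to 4.41 FPKM in MPH and 36.9 to 76.8 in BECs.

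A library in each group stood apart. On the second principal component, which held 7.97% of the variance after 82.7% on the first, MPH replicate 3 lay at -52.8 and the other MPH libraries were above 0. In MPH replicate 3, 87 genes were more than 2 log2 units above the other MPH libraries and 140 were more than 2 below them. Cyp4a14, a fatty acid hydroxylase, stood at 16.8, 37.0 and 1909 FPKM in MPH replicates 1 to 3, and the fasting hormone gene Fgf21 at 3.69, 2.71 and 49.8 FPKM. BECs replicate 3 carried the most pancreatic acinar transcripts, with the chymotrypsinogen gene Ctrb1 at 104, 11.2 and 2386 FPKM over BECs replicates 1 to 3. The acinar markers summed to 443, 165 and 7084 FPKM in these libraries and to 58.8, 6.58 and 20.8 in MPH. In Sham the sums were 1650, 293 and 113 FPKM in BECs and 105, 14.7 and 31.3 in MPH. The immunoglobulin kappa transcript Igkc stood at 1661 FPKM in BECs replicate 3, against 161 and 308 in the other BECs libraries. Each group also mixed libraries with Xist, the RNA of the inactive X chromosome (MPH replicate 3 at 47.3 FPKM, BECs replicates 2 and 3 at 59.9 and 35.0), and libraries with Y-linked Ddx3y (MPH replicates 1 and 2 at 19.8 and 23.1, BECs replicate 1 at 24.7).

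Ligated hepatocytes and biliary cells differed in 6812 of the 13474 genes tested (50.6% with limma at a Benjamini-Hochberg adjusted p under 0.05). Of these, 3368 (25% of the genes tested) were higher in MPH and 3444 (25.6%) were higher in BECs. In 8365 genes (62.1%) the 3 MPH and the 3 BECs values did not overlap. On the log2(FPKM + 1) scale, 202 called genes were more than 5 log2 units higher in MPH and 23 more than 5 higher in BECs. This balance rests on the pseudocount and the scaling: it was 346 and 195 with a pseudocount of 0.1, 412 and 442 with 0.01, and 305 and 504 with voom on recovered reads. The call count was 6624 without replicate 3 of each group and 6543 with the Xist class of each library as a term. It was 1815 where the difference itself had to exceed 1 log2 unit.

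The even split between the directions rests on how the deposited values were scaled. The library size implied by the FPKM values was 0.604 to 0.730 of the recovered reads in MPH and 1.08 to 1.18 in BECs. With each library scaled to its recovered reads, 1512 genes were higher in MPH and 7102 in BECs (17.6% of the calls on the MPH side), and the median of all genes moved from -0.01 to -0.62. A common FPKM sum gave 12.3% and a median of -0.85. The list counts below are those as deposited, and the counts with these scalings stand beside them where they change the picture.

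**Figure D2:**
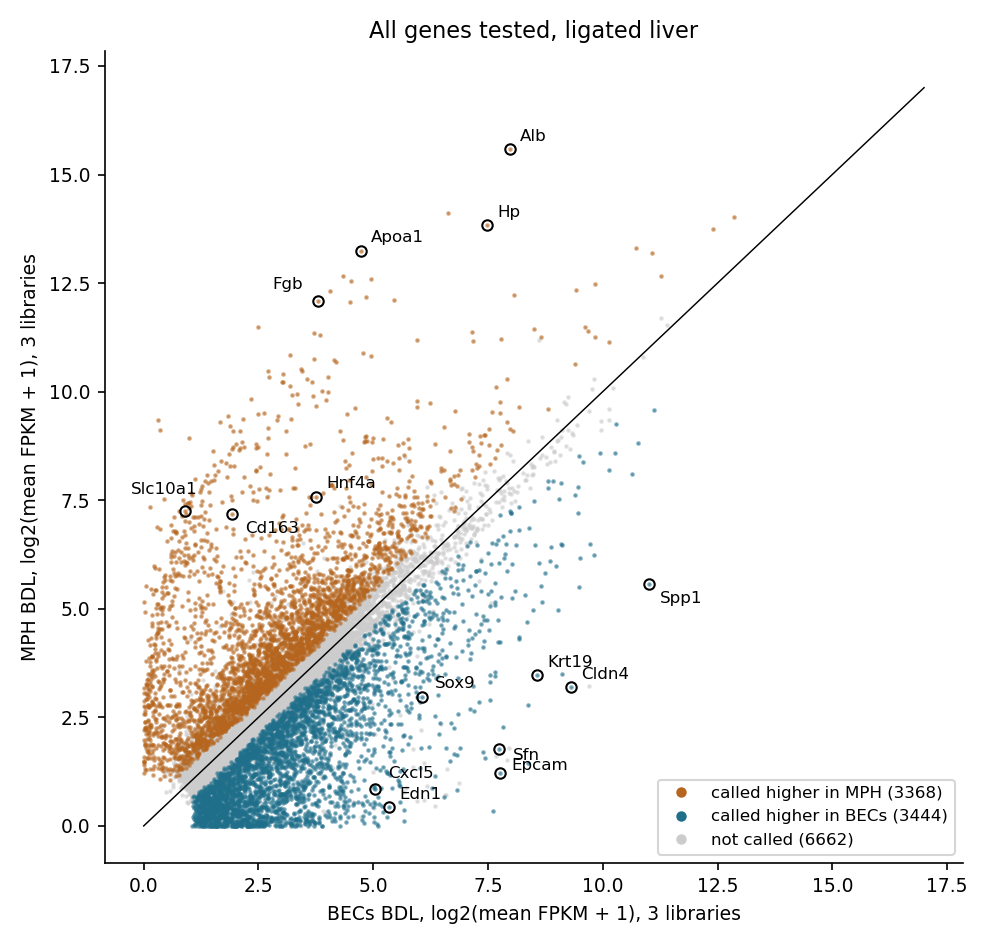
Mean level of each of the 13474 genes tested in MPH BDL (vertical) against BECs BDL (horizontal), as log2 of the mean FPKM + 1 over 3 libraries. Orange points are the 3368 genes higher in MPH, blue points the 3444 higher in BECs, grey points the genes not called; the line marks equal levels and some genes named in the text are circled, such as Alb and Spp1 at opposite sides.

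The MPH transcriptome was dominated by few genes. Its 10 most abundant genes took 24.7%, 24.9% and 30.5% of the FPKM sum in replicates 1 to 3, against 12.2%, 10.8% and 10.2% in BECs. The most abundant genes that together hold 50% of all FPKM numbered 106, 83 and 39 in MPH and 369, 417 and 433 in BECs. A total of 10052 genes were at an FPKM of at least 1 in all 6 libraries, and 44.9% of these were called. The 406 genes at that level in all MPH and no BECs libraries, and the 1123 genes at that level in all BECs and no MPH libraries, passed the filter through 1 cell type only. They had to differ and are not read as support. This holds for single genes too, such as Ankrd1, Cftr, Muc1, Itgb4, Edn1, Sctr and Grhl2, which were below 1 FPKM in all MPH libraries and whose values are a description.

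Among the largest differences on the MPH side were genes of secreted plasma proteins. Apoa1, the main protein of high density lipoprotein, stood at 6394, 8448 and 14384 FPKM in MPH and at 49.4, 22.7 and 4.25 FPKM in BECs. The log2 difference of FPKM + 1 was 8.96 with a standard error of 0.83 (adjusted p = 0.00034). The lowest MPH library was far above the highest BECs library. The other 9 of the 10 largest differences, from 7.91 to 8.35, were Fgg, Fgb and Fga (the 3 fibrinogen chains), Apoa2, Igfbp1 (a binding protein of insulin-like growth factors), Serpina3k, Kng1 (kininogen), Rbp4 (the retinol carrier) and Azgp1. Igfbp1 varied most within MPH, at 464, 908 and 7193 FPKM, with replicate 3 the highest.

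The 10 largest differences on the BECs side included a claudin gene and a target gene of YAP. Cldn4, a claudin of tight junctions, stood at 668, 610 and 615 FPKM in BECs and at 0.658, 0.844 and 22.9 FPKM in MPH (log2 difference -7.24, standard error 1.01, adjusted p = 0.0017). The BECs libraries were close together, and MPH replicate 3 stood above the other MPH libraries. Ankrd1, a nuclear ankyrin protein induced by YAP, stood at 187, 295 and 102 FPKM in BECs and at 0.226, 0.228 and 0.370 FPKM in MPH (-7.13). The other 8 were Sfn (the epithelial 14-3-3 protein sigma), Dmbt1 (a mucosal scavenger protein), Epcam, Mfap4, Muc1, Mmp7, Tspan8 and Cd24a, from -6.61 to -5.57. Mfap4, a microfibril protein, is better known from mesenchymal cells, and its values of 185, 86.4 and 64.6 FPKM in BECs stood beside the stellate cell and fibroblast sums given above. The part of those cells was not tested.

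**Figure D3:**
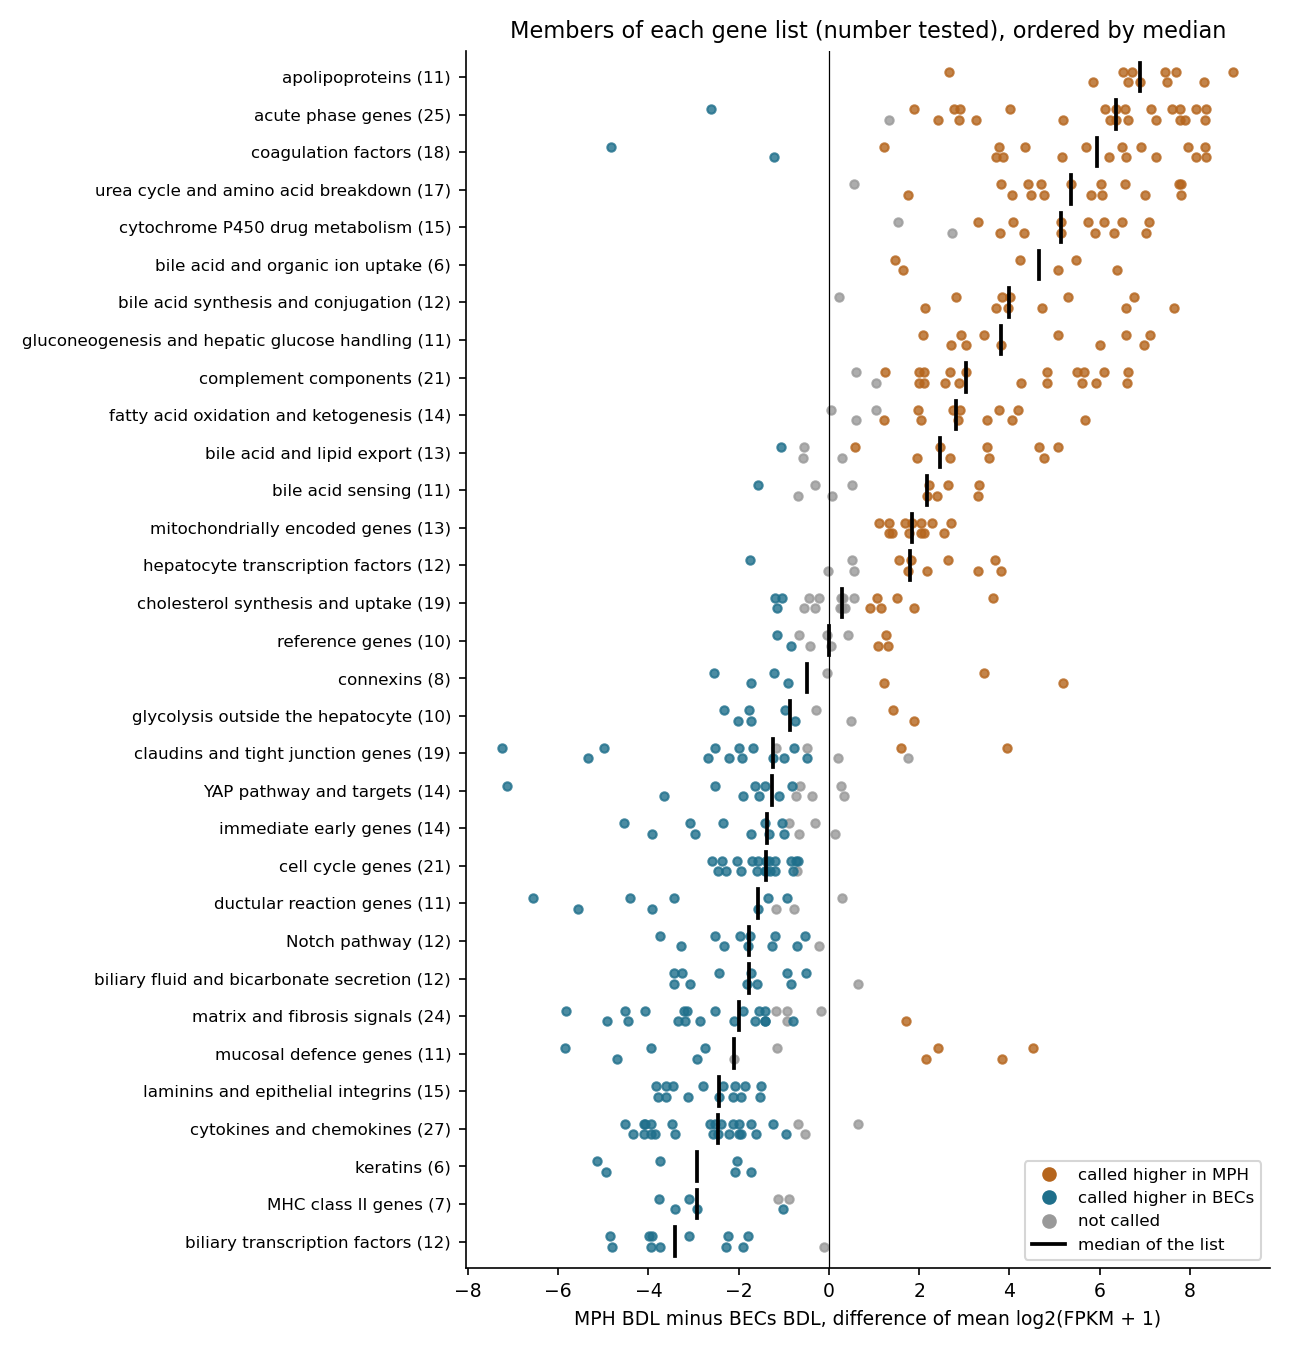
Difference of mean log2(FPKM + 1), MPH BDL minus BECs BDL, for each tested member of each gene list, with 1 point per gene and a black bar at the list median. Lists are ordered by median, from apolipoproteins at 6.90 to biliary transcription factors at -3.42, and the number of tested members stands in brackets.

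List counts below cover the members that passed the filter on low values. A member that passed only through the cell type where it is high had to differ, so each count describes the list and is set against the 25% and 25.6% of all genes called in each direction.

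All 11 apolipoprotein genes tested were higher in MPH (median 6.90, against -0.01 over all genes tested). Apoe, which macrophages also make, had the smallest difference, 2.67, with 10609, 9997 and 9992 FPKM in MPH and 2119, 2025 and 958 FPKM in BECs. Apoa4 stood at 33.6, 42.5 and 1585 FPKM in MPH, so that MPH replicate 3 set most of its mean. Apoa1, Apoc3 and Apoa4 lie side by side on chromosome 9 (GRCm38, 46228580 to 46230466, 46232933 to 46235636 and 46240696 to 46243459), and all 3 were higher in MPH.

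Coagulation genes were mostly higher in MPH, with tissue factor on the other side. Of 18 tested, 16 were higher in MPH and 2 in BECs (median 5.95). F2, the gene of prothrombin, stood at 412, 352.5 and 371 FPKM in MPH and at 4.72, 2.77 and 0.455 FPKM in BECs. F3, the gene of tissue factor, which starts coagulation from cells outside the blood, stood at 1.51, 2.11 and 12.9 FPKM in MPH and at 123, 173 and 113 FPKM in BECs (-4.82, standard error 0.64, adjusted p = 0.0014). The other gene on the BECs side was F13a1, a transglutaminase chain of macrophages and mesenchymal cells (-1.21). The fibrinogen genes Fgg, Fga and Fgb form a cluster on chromosome 3 (GRCm38, 83007724 to 83015049, 83026076 to 83033627 and 83040141 to 83049863) and differed by 8.35, 8.13 and 8.35.

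Of 25 acute phase genes, 23 were higher in MPH, 1 was higher in BECs and 1 did not pass the test (median 6.35). Hp, the gene of the hemoglobin carrier haptoglobin, stood at 14161, 13840 and 15938 FPKM in MPH and at 171, 160 and 200 FPKM in BECs (6.37, standard error 0.22, adjusted p = 2.4e-05). Hamp, the gene of the iron hormone hepcidin, stood at 3078, 3901 and 5765 FPKM in MPH and at 33.0, 27.0 and 4.39 FPKM in BECs. Lcn2, the gene of the siderophore binder lipocalin 2, was less far apart, with 981, 1462 and 859 FPKM in MPH and 240, 158 and 213 in BECs (2.41). Il1rn, the interleukin 1 receptor antagonist, was the member higher in BECs (8.89, 7.52 and 10.8 against 106, 59.8 and 34.0 FPKM). Saa1 and Saa2 are near-identical copies, so that reads may be split between them.

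Of 21 complement genes, 19 were higher in MPH and 2 (Cfb and C2) did not pass the test (median 3.04). With a common FPKM sum 15 were higher in MPH. The terminal components C8b and Hc (complement C5) differed by 6.10 and 6.61. The 3 chains of C1q, which macrophages make, differed by 2.00 to 2.57. Their members C1qa, C1qb and C1qc belong to the Kupffer cell list, which was higher in MPH in 11 of 12 genes. C3 stood at 7007, 5165 and 3445 FPKM in MPH and still at 764, 748 and 543 FPKM in BECs (2.88).

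Genes of bile acid synthesis were higher in hepatocytes wherever they passed the test. Of 12 tested genes, 11 were higher in MPH and Cyp7b1 did not pass (median 4.00). Cyp27a1, which starts the alternative pathway, stood at 212, 201 and 158 FPKM in MPH and at 14.2, 12.0 and 7.23 FPKM in BECs (4.02, standard error 0.27, adjusted p = 0.00011). Baat, which joins bile acids to amino acids, stood at 174, 178 and 155 FPKM in MPH and at 1.43, 1.04 and 0.125 FPKM in BECs (6.58). The mouse enzyme gene Cyp2c70, which makes muricholic acid, had the largest difference of the list, 7.66.

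Cyp7a1, which limits the rate of classical bile acid synthesis, fell short of the filter on low values and was not tested. It stood at 63.8, 7.28 and 0 FPKM in MPH and at 0.209, 0.0394 and 0.0116 FPKM in BECs. Cyp8b1, which sets the cholic acid share, stood at 7.48, 3.85 and 0.191 FPKM in MPH and at 0.588, 0.253 and 0.0249 in BECs. For both genes MPH replicate 3 lay within or below the range of BECs, so the groups overlapped.

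All 6 tested carriers for bile acid and organic ion uptake were higher in MPH (median 4.65), and 4 with scaling to recovered reads, a common FPKM sum or voom. Slc10a1, the sodium-dependent uptake carrier of the basolateral membrane, stood at 127, 143 and 188 FPKM in MPH and at 1.46, 0.772 and 0.376 FPKM in BECs (6.38, standard error 0.26, adjusted p = 3e-05). Slco1b2, an organic anion carrier, stood at 102, 106 and 40.2 FPKM in MPH and at 1.94, 0.389 and 0.256 in BECs (5.48). Slc10a2, the apical carrier known from ileum and cholangiocytes, was also higher in MPH, at 17.2, 25.8 and 6.19 FPKM against 3.23, 4.53 and 3.92 in BECs (1.64, standard error 0.47, adjusted p = 0.026). The MPH and BECs ranges of Slc10a2 were adjacent without overlap.

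Export genes were mixed. Of 13 tested, 9 were higher in MPH, 1 was higher in BECs and 3 did not pass (median 2.45). The count on the BECs side was 3 with scaling to recovered reads or voom and 4 with a common FPKM sum, with 8 higher in MPH in each. Abcb11, the bile salt export pump, stood at 147, 49.1 and 25.8 FPKM in MPH and at 1.72, 0.671 and 0.151 in BECs (5.07, standard error 0.65, adjusted p = 0.0012). Abcc3, a basolateral export pump, stood at 133, 104 and 84.4 FPKM in MPH and at 15.5, 16.1 and 24.8 in BECs (2.45). Abcb1a, a multidrug pump, was the member higher in BECs (7.93, 9.23 and 10.5 FPKM against 4.88, 2.59 and 4.42). Slc51b, a subunit of the basolateral organic solute transporter, stood at 7.08, 1.25 and 3.15 FPKM in MPH and at most at 0.137 in BECs (1.95), so that it passed the filter through MPH alone.

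Of 11 bile acid sensing genes, 6 were higher in MPH, 1 was higher in BECs and 4 did not pass (median 2.18), while 2 were higher in BECs with scaling to recovered reads and 3 with a common FPKM sum. Nr1h4, the bile acid receptor FXR, stood at 46.8, 60.2 and 68.9 FPKM in MPH and at 4.53, 6.88 and 3.91 in BECs (3.30, standard error 0.23, adjusted p = 0.00014). Nr0b2, the repressor SHP that FXR induces, stood at 25.8, 15.5 and 2.80 FPKM in MPH and at 0.771, 1.69 and 1.46 in BECs (2.39, adjusted p = 0.029). Without MPH replicate 1 its adjusted p was 0.068, without MPH replicate 2 it was 0.089, and without any 1 of the BECs libraries it was 0.066 to 0.089. Gpbar1, the membrane bile acid receptor TGR5, was the member higher in BECs, at 4.21, 1.38 and 2.71 FPKM against 0.0741, 0.600 and 0 in MPH (-1.58), and it too passed the filter through BECs alone.

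Genes of amino acid, glucose and drug metabolism lay almost wholly on the MPH side. Of 17 urea cycle and amino acid genes, 16 were higher in MPH (median 5.36), and glutamine synthetase Glul did not pass (86.6, 285 and 146 FPKM in MPH, 106, 107 and 99.8 in BECs). All 11 genes of gluconeogenesis and hepatic glucose handling were higher in MPH (median 3.81). Pck1, which commits carbon to glucose, stood at 962, 998 and 962 FPKM in MPH and at 16.0, 7.05 and 2.33 FPKM in BECs. Of 15 cytochrome P450 genes, 13 were higher in MPH (median 5.15) and 15 without replicate 3 of each group.

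Isoenzymes of glycolysis outside the hepatocyte pointed the other way in part. Of 10 tested, 6 were higher in BECs and 2 in MPH (median -0.86), and 1 was higher in MPH with scaling to recovered reads. Slc2a1, the widespread glucose transporter, stood at 8.84, 7.96 and 11.7 FPKM in MPH and at 47.0, 52.7 and 52.7 FPKM in BECs (-2.32, standard error 0.17, adjusted p = 0.00015). Ldha and Pgk1, of lactate and ATP formation, were higher in MPH by 1.88 and 1.43. Of 14 genes of fatty acid oxidation and ketogenesis, 11 were higher in MPH (median 2.81). Cpt1a, which admits fatty acids to mitochondria, stood at 49.6, 102 and 288 FPKM in MPH, the highest in replicate 3, and at 30.4, 23.4 and 26.6 in BECs (2.05).

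Cholesterol synthesis genes did not keep a direction across scalings. As deposited, 6 of 19 were higher in MPH and 3 in BECs (median 0.30), while with libraries scaled to recovered reads 1 was higher in MPH and 7 in BECs (median -0.37). The 13 mitochondrially encoded genes were all higher in MPH (median 1.84), 9 under scaling to recovered reads, and 4 higher with 2 lower under quantile normalization. Of 10 reference genes, 3 were higher in MPH and 2 in BECs (median 0.01), which became 1 to 5 under scaling to recovered reads.

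On the biliary side, genes of fluid and bicarbonate secretion were higher in BECs in 11 of 12 tested (median -1.77). Cftr, the apical chloride channel, stood at 10.8, 14.7 and 7.28 FPKM in BECs and at 0.0103, 0.0104 and 0.216 FPKM in MPH (-3.42). Sctr, the secretin receptor that drives bicarbonate secretion, stood at 3.28, 6.35 and 5.05 FPKM in BECs and at most at 0.160 in MPH (-2.43). Ano1, a calcium-activated chloride channel, and Pkhd1, the cilium gene of congenital hepatic fibrosis, differed by -3.42 and -3.26. Aqp1, a water channel that endothelium also makes, did not pass, with 182, 379 and 94.0 FPKM in MPH and 103, 109 and 152 in BECs.

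All 6 keratin genes tested were higher in BECs (median -2.92). The duct keratin genes Krt7 and Krt19 differed by -3.74 and -5.14. Krt8 and Krt18, which hepatocytes also use, were high in MPH as well: Krt8 stood at 644, 461 and 249 FPKM in MPH and at 1699, 1996 and 1495 FPKM in BECs (-2.03, standard error 0.38, adjusted p = 0.0054). Of the other biliary markers, Spp1, the gene of osteopontin, stood at 2243, 2185 and 1784 FPKM in BECs and at 49.5, 52.3 and 38 FPKM in MPH (-5.45). Epcam, a surface adhesion protein of duct cells, stood at 233, 231 and 173 FPKM in BECs and at 1.09, 0.988 and 5.21 in MPH.

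Transcription factors followed the cell type with exceptions. Of 12 hepatocyte factors, 8 were higher in MPH, Foxa1 was higher in BECs and 3 did not pass (median 1.79). Hnf4a stood at 140, 192 and 240 FPKM in MPH and at 11.1, 11.2 and 15.2 FPKM in BECs (3.81, standard error 0.24, adjusted p = 9.7e-05). Within the Foxa family, Foxa3 was higher in MPH (3.69), Foxa1 was higher in BECs (-1.74), and Foxa2 had 8.81, 6.40 and 7.82 FPKM in MPH against 8.18, 9.29 and 6.20 in BECs (-0.03, standard error 0.19).

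Of 12 biliary factors, 11 were higher in BECs and Onecut2 did not pass (median -3.42). Sox9 stood at 84.8, 60.9 and 52.5 FPKM in BECs and at 4.57, 8.64 and 7.41 FPKM in MPH (-3.10, standard error 0.27, adjusted p = 0.00029), which is 10.4% of the BECs mean. Ehf and Foxj1, factors of epithelial and of ciliated cells, had the largest differences, -4.81 and -4.85. Grhl2, an epithelial factor, stood at 3.24, 4.18 and 3.80 FPKM in BECs and at 0, 0 and 0.0108 in MPH.

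Of 12 Notch genes, 11 were higher in BECs and Notch1 did not pass (median -1.77). The ligand gene Jag1 stood at 29.9, 29.4 and 20.6 FPKM in BECs and at 1.91, 1.65 and 1.87 FPKM in MPH (-3.28, standard error 0.18, adjusted p = 5.5e-05). Among receptors, Notch2 differed by -0.53 and Notch3, which mural cells also carry, by -2.52. The target gene Hes1 stood at 293, 380 and 304 FPKM in BECs and at 18.0, 38.4 and 18.5 FPKM in MPH (-3.73).

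Of 14 genes of the YAP pathway, 9 were higher in BECs and none in MPH (median -1.27), and 12 were higher in BECs with scaling to recovered reads. Yap1 itself stood at 8.34, 7.74 and 13.9 FPKM in MPH and at 8.31, 7.32 and 6.95 in BECs and did not pass (0.33, standard error 0.23). Its target genes Ankrd1, Cyr61 (Ccn1) and Ctgf (Ccn2), of matricellular proteins in the latter pair, differed by -7.13, -3.65 and -2.52. Cyr61 stood at 777, 1048 and 707 FPKM in BECs and at 110, 137 and 18.0 in MPH. Of 11 ductular reaction genes, 8 were higher in BECs (median -1.58), among them Cd24a (201, 240 and 233 FPKM against 3.80, 2.78 and 4.88) and the stem cell surface gene Prom1 (16.2, 30.0 and 35.9 against 0.344, 0.236 and 0.247).

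Junction genes divided by member. Of 19 claudin and tight junction genes, 13 were higher in BECs and 2 (Cldn12 and Cldn14) in MPH (median -1.25). Cldn2, a pore-forming claudin, was near equal, with 55.0, 35.4 and 68.2 FPKM in MPH and 38.3, 62.5 and 36.9 in BECs. Cldn3 and Cldn4 lie near each other on chromosome 5 (GRCm38, 134986214 to 134987472 and 134945119 to 134946934), and Cldn3 was higher in BECs by a smaller difference, -1.25 (107, 52.1 and 73.2 FPKM in MPH, 196, 191 and 149 in BECs). Cldn6, a claudin of embryonic epithelium, stood at 37.5, 40.7 and 20.9 FPKM in BECs and at most at 0.0541 in MPH.

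Gap junction genes divided as well. Of 8 connexins, Gjb1, Gjb2 and Gja4 were higher in MPH and 4 were higher in BECs (median -0.48). Gjb1, the main connexin of hepatocytes, stood at 266, 189 and 202 FPKM in MPH and at 12.0, 19.6 and 28.9 in BECs (3.44, standard error 0.33, adjusted p = 0.00039). Gja5, a connexin of vessels and heart, stood at 1.88, 2.97 and 2.61 FPKM in BECs and at most at 0.0561 in MPH (-1.74). The count on the BECs side was 2 without MPH replicate 1, BECs replicate 1 or BECs replicate 3, and with the Xist class as a term.

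Basement membrane genes were higher in the biliary libraries. All 15 laminin chains and epithelial integrins tested were higher in BECs (median -2.43). Lama5, the epithelial alpha chain, stood at 53.1, 48.0 and 47.5 FPKM in BECs and at 2.26, 3.45 and 3.80 FPKM in MPH (-3.62, standard error 0.18, adjusted p = 4.7e-05). Itgb4, the hemidesmosome integrin, stood at 17.6, 18.4 and 22.8 FPKM in BECs and at 0.738, 0.218 and 0.531 FPKM in MPH (-3.79).

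Mucosal defence genes split by member. Of 11 tested, 5 were higher in BECs and 4 in MPH (median -2.10). Muc1, a membrane mucin, stood at 65.6, 91.8 and 121 FPKM in BECs and at 0.611, 0.447 and 0.675 FPKM in MPH (-5.85). Tff2, a trefoil peptide gene, stood at 30.1, 17.8 and 33.2 FPKM in BECs and at most at 0.160 in MPH. The trefoil gene Tff3 went the other way, at 320, 250 and 5.48 FPKM in MPH and 3.21, 1.00 and 4.04 in BECs (4.53, adjusted p = 0.042). Pigr, which carries immunoglobulin A into bile, was also higher in MPH (309, 192 and 64.4 against 4.31, 14.5 and 15.5 FPKM). The count on the MPH side was 2 without MPH replicate 1 or 2 or BECs replicate 1 or 2, and with scaling to recovered reads.

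The promoters of genes that moved with each cell type were searched for 6 short motifs, written on either strand, in the 250 bases before the RefSeq start. The letters were GTTAATNAT for HNF1, CAAAGTCCA for HNF4A, TTGCNNAA for C/EBP, GGAATG for TEAD, TGANTCA for AP-1 and AACCNGTT for GRHL. A promoter was found for 9717 of the 13474 genes tested, and 1965 had more than 1 entry, of which the first was used. Matches of different motifs overlapped in 11 of these promoters. The RefSeq table held 27025 promoters in all.

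Shares are given for all promoters of the table, for the genes tested, for the genes called higher in MPH (2540) and in BECs (2430), and for the called genes more than 3 log2 units higher in MPH (362) and in BECs (167), a split chosen after seeing the data. In this order the HNF1 letters stood in 0.781%, 0.617%, 1.42%, 0.453%, 5.52% and 0.599%. The HNF4A letters stood in 0.381%, 0.473%, 0.748%, 0.247%, 3.04% and 0%, and the C/EBP letters in 9.55%, 8.1%, 9.88%, 6.75%, 21.3% and 9.58%. These 3 motifs had their highest share in the genes more than 3 log2 units higher in MPH. The TEAD letters stood in 12.6%, 10.5%, 10.9%, 11.8%, 13.5% and 15.6%, the AP-1 letters in 6.87%, 4.66%, 5.04%, 5.72%, 9.39% and 13.2%, and the GRHL letters in 1.71%, 1.62%, 1.97%, 1.65%, 2.21% and 3.59%. For these 3 both sets of large differences lay above the genes tested, with the BECs set the higher. Some shares rest on few promoters: GRHL letters stood in 8 of 362 and 6 of 167, and HNF4A letters in 11 of 362 and 0 of 167. A match is a run of letters and not a site shown to be used.

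These promoters of genes called in each direction are shown as examples that hold such letters. They are from RefSeq on GRCm38.p6, 5′ to 3′ on the strand of the gene, ending before the gene start, with the matches in capitals.
Alb, chr5:90460620-90460869, plus strand: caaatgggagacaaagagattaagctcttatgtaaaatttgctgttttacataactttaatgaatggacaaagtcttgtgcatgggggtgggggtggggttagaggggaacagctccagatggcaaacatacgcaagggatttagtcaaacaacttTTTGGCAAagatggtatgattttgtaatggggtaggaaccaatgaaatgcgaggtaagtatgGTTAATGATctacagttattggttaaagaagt
Igfbp1, chr11:7197537-7197781, plus strand: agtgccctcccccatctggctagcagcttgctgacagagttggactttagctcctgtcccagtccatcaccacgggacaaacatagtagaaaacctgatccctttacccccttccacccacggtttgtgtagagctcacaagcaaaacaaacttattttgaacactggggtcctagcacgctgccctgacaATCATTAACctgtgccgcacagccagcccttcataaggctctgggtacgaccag
F13b, chr1:139501457-139501701, plus strand: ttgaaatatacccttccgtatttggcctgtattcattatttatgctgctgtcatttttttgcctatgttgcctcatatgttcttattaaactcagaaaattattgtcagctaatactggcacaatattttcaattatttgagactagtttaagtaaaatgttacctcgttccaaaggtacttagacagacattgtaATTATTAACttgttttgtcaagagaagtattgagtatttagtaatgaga
Slco1b2, chr6:141629268-141629517, plus strand: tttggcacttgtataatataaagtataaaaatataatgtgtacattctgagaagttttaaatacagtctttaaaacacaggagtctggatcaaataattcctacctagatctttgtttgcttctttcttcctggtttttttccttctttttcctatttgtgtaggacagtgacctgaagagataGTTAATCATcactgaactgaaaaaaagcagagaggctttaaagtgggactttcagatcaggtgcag
Ajuba, chr14:54577662-54577911, minus strand: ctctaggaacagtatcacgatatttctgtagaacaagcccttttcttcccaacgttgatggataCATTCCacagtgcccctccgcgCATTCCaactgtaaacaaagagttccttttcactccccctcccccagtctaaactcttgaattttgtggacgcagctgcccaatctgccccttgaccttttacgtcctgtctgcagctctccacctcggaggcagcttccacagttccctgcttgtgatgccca
Cldn4, chr5:134946935-134947184, minus strand: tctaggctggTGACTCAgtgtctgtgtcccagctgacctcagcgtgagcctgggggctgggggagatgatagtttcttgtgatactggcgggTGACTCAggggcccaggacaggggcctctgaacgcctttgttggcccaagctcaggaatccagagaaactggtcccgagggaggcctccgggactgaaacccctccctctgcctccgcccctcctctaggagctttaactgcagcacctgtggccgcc
Muc1, chr3:89228806-89229055, plus strand: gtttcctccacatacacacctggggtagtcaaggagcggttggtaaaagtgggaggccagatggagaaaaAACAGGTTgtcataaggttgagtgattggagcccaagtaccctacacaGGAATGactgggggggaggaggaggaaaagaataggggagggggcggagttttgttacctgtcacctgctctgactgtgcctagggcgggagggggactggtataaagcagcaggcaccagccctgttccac
Pkhd1, chr1:20618065-20618307, minus strand: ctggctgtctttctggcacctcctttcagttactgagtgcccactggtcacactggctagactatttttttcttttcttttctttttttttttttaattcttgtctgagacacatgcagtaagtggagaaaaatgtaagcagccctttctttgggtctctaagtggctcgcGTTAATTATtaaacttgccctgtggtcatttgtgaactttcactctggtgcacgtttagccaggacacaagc

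In the first 4, of genes higher in MPH, the capitals mark HNF1 letters that begin 32, 59, 54 and 66 bases before the RefSeq start of Alb, Igfbp1, F13b (a coagulation factor chain) and Slco1b2, and in Alb also C/EBP letters at 94 bases. In the last 4, of genes higher in BECs, they mark 2 TEAD matches of Ajuba, a YAP pathway gene (186 and 164 bases), 2 AP-1 matches of Cldn4 (240 and 158), a GRHL and a TEAD match of Muc1 (180 and 132) and an HNF1 match of Pkhd1 (79). Pkhd1 was the only gene with HNF1 letters among the 167 more than 3 log2 units higher in BECs. F13b stood at 85.7, 71.2 and 69.1 FPKM in MPH and at 0.819, 0.606 and 0.0768 in BECs. Ajuba stood at 5.42, 3.10 and 5.57 FPKM in MPH and at 13.6, 19.3 and 16.6 in BECs (-1.64).

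Fibrosis signals were mostly higher in the biliary libraries. Of 24 matrix and fibrosis genes, 19 were higher in BECs, 1 was higher in MPH and 4 did not pass (median -2.0). Among growth factors, Pdgfb, a mitogen of stellate cells, stood at 91.7, 81.0 and 48.2 FPKM in BECs and at 4.94, 1.16 and 1.41 FPKM in MPH (-4.52, standard error 0.44, adjusted p = 0.00043). Tgfb2, a profibrotic ligand, stood at 16.4, 16.7 and 8.87 FPKM in BECs and at 1.35, 0.390 and 0.225 in MPH (-3.19). Tgfb1 did not pass (24.3, 31.7 and 11.5 FPKM in MPH, 37.9, 19.5 and 17.4 in BECs).

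Edn1, the gene of the vasoconstrictor endothelin 1, stood at 46.7, 35.9 and 35.5 FPKM in BECs and at 0.521, 0.377 and 0.131 FPKM in MPH (-4.91). The protease genes Mmp7 (matrilysin, of epithelium) and Plau (urokinase) differed by -5.84 and -4.45. Fn1, the gene of fibronectin, which hepatocytes secrete into plasma, was the member higher in MPH, at 260, 273 and 334 FPKM against 99.7, 77.4 and 85.7 (1.71). Stellate cell and fibroblast transcripts moved with this list: Col1a1 stood at 431, 254 and 266 FPKM in BECs and 62.5, 46.1 and 7.88 in MPH, while Lrat, of quiescent stellate cells, was higher in MPH (2.22). In the stellate cell list 10 of 14 were higher in BECs and 2 in MPH, and the part of those cells in the fibrosis genes was not tested.

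Of 27 cytokine and chemokine genes, 24 were higher in BECs, none was called higher in MPH and 3 did not pass (median -2.46). The neutrophil attractant Cxcl5 stood at 40.5, 43.0 and 12.3 FPKM in BECs and at 1.62, 0.606 and 0.200 FPKM in MPH (-4.08, standard error 0.53, adjusted p = 0.0012). Ccl20, which draws CCR6 cells to mucosa, stood at 12.6, 25.9 and 2.74 FPKM in BECs and at 0 in all MPH libraries. Cx3cl1, a membrane-bound attractant of monocytes, and Il23a, a subunit of interleukin 23, differed by -4.10 and -3.95. Ccl2, which draws monocytes, stood at 352, 521 and 202 FPKM in BECs and at 36.2, 25.9 and 29.6 in MPH (-3.42).

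Leukocyte transcripts stood beside these cytokine differences. Tnf and Ccl4, which myeloid and T cells also make, differed by -3.94 and -3.85. All 9 tested T and NK cell markers were higher in BECs (median -2.01), with Cd3d at 5.14, 2.57 and 4.53 FPKM in BECs and at 0.0439, 0.0889 and 0 in MPH. Of 10 neutrophil markers 4, of 9 monocyte markers 4 and of 9 markers of lipid- and scar-associated macrophages 3 were higher in BECs, and none in MPH. With scaling to recovered reads these counts were 6, 4 and 5. The neutrophil count was 2 without MPH replicate 2 or BECs replicate 2, and the macrophage count was 1 without MPH replicate 2, BECs replicate 1 or BECs replicate 2. Kupffer cell markers went the other way, with 11 of 12 higher in MPH (median 4.34), as did 10 of 12 sinusoidal endothelial markers (median 2.31). With scaling to recovered reads 9 Kupffer and 7 sinusoidal endothelial markers were higher in MPH, and with a common FPKM sum 6 sinusoidal endothelial markers were higher in MPH and 1 in BECs. The part of any of these cells in the cytokine differences was not tested.

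Antigen presentation genes depended on single libraries. Of 7 MHC class II genes, 5 were higher in BECs (median -2.92). H2-Ab1 stood at 682, 519 and 184 FPKM in BECs and at 82.5, 111 and 10.3 FPKM in MPH (-3.09, standard error 0.95, adjusted p = 0.035), with replicate 3 the lowest in each group. The count was 7 without replicate 3 of each group or with scaling to recovered reads, 3 without MPH replicate 1, and 1 without BECs replicate 1 or BECs replicate 2.

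Proliferation transcripts were higher in BECs. Of 21 cell cycle genes tested, 20 were higher in BECs and Rrm2 did not pass (median -1.40). Mki67, a marker of cycling cells, stood at 11.4, 13.1 and 5.29 FPKM in BECs and at 1.46, 1.11 and 0.537 FPKM in MPH (-2.37, standard error 0.35, adjusted p = 0.0020). Pcna, the DNA replication clamp, stood at 82.9, 76.5 and 62.0 FPKM in BECs and at 24.9, 28.8 and 27.8 FPKM in MPH (-1.40). The groups did not overlap for either gene. The part of leukocytes and fibroblasts, whose markers were also higher in BECs, was not tested.

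Immediate early and heat shock genes, which cell isolation is known to induce, were also higher in BECs in 10 of 14 (median -1.38), and in 13 with scaling to recovered reads. Atf3 stood at 730, 1068 and 893 FPKM in BECs and at 93.2, 111 and 18.2 FPKM in MPH (-3.92, standard error 0.67, adjusted p = 0.0038). Fos, at 723, 877 and 356 FPKM in MPH and 950, 1163 and 1270 in BECs, did not pass. Hspa1a and Hspa1b are near-identical copies whose reads may be split. The count was 5 without BECs replicate 2 and 6 without BECs replicate 3, and the part of the isolation in other differences was not tested.

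Pairs of related genes were compared within libraries, as the ratio of their FPKM + 1. Of 23 pairs, 9 had the first gene called higher in MPH and the second called higher in BECs, where 25% and 25.6% of all genes were called in these directions. This count was 8 to 13 under the other scalings, added after seeing the data. In 21 pairs the log2 ratio of the 2 genes within a library did not overlap between MPH and BECs (62.1% of single genes did not). In 10 pairs the ratio was above 0 in every MPH and below 0 in every BECs library. The 62.1%, 25% and 25.6% are shares of single genes and so not a like measure for pairs. The exceptions to non-overlap were Acsl1/Acsl4 and Onecut1/Onecut2. In Krt8/Krt7 and Krt18/Krt19 all 4 genes were higher in BECs, and in Slc10a1/Slc10a2 and Acsl1/Acsl4 all 4 were higher in MPH.

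The largest shift was that of the methionine adenosyltransferases. The log2 ratio of Mat1a, the liver enzyme, to Mat2a, the enzyme of other tissues, was 5.80, 6.51 and 6.63 in MPH and -0.06, -2.29 and -2.92 in BECs, a difference of 8.07. Cldn2/Cldn4 differed by 7.43, and in MPH replicate 3 its ratio of 1.53 was below the 5.08 and 4.30 of the other MPH libraries. Fabp1/Fabp5, the liver and epidermal fatty acid binding proteins, differed by 7.16. These 3 pairs are not among the 9, since Mat2a, Cldn2 and Fabp5 did not pass the test.

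The export pumps Abcc2/Abcc1 and the glucose transporters Slc2a2/Slc2a1 changed sign between the cell types in every library.

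**Figure D4:**
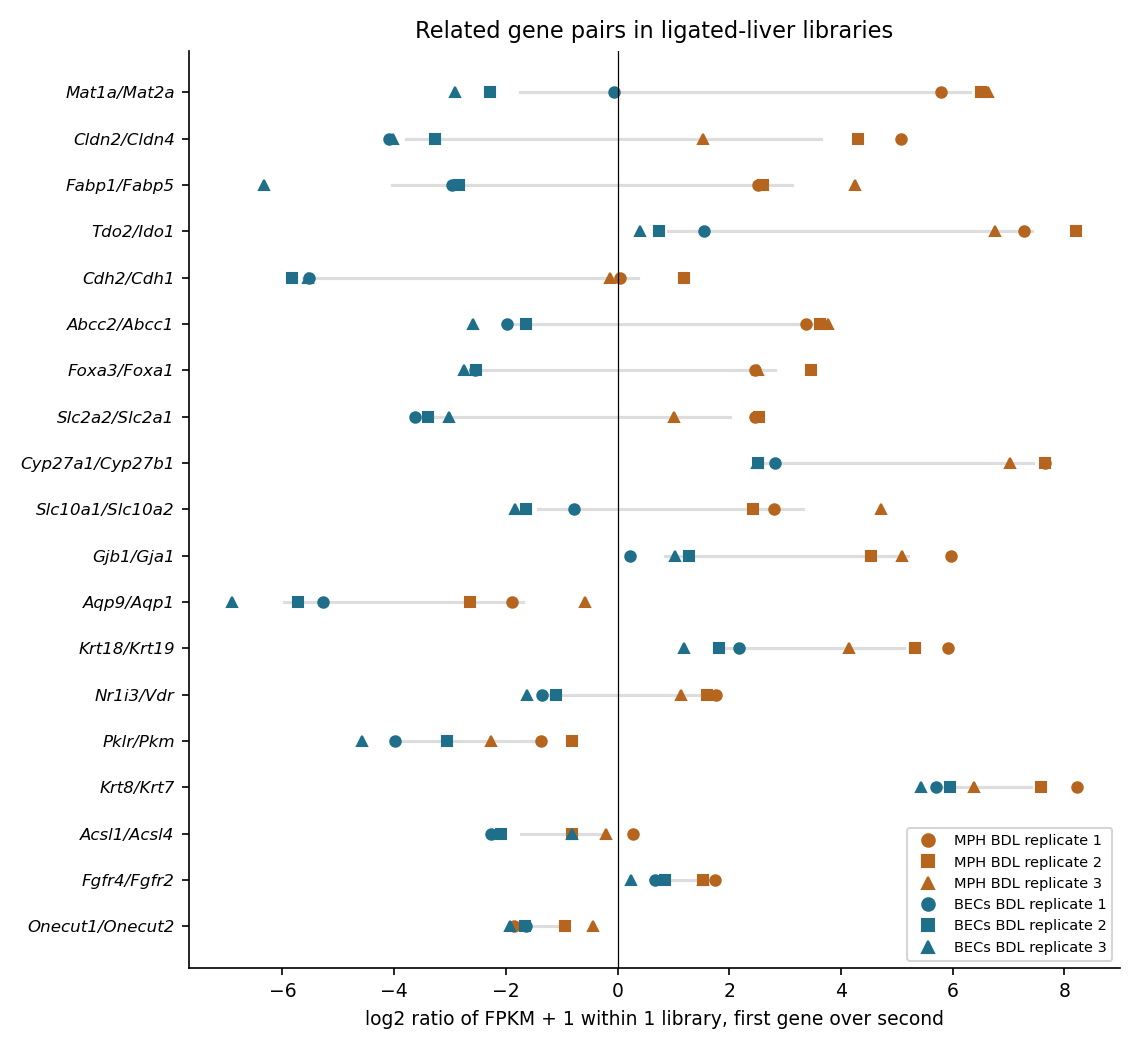
Log2 ratio of FPKM + 1 of the first gene to the second gene within each library, for 19 of the 23 pairs of related genes, with 1 point per library and a grey line between the group means. Pairs are ordered by the difference between these means, from Mat1a/Mat2a at 8.07 down, and points right of 0 mean that the first gene was higher in that library.

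The difference between MPH and BECs was compared with that in Sham liver by an interaction over 12 libraries, of which the 6 BDL libraries are those described above. Of 14780 genes tested, 237 (1.6% with limma) had an interaction that passed, 131 shifted toward MPH after ligation and 106 toward BECs. A total of 2632 had an unadjusted p under 0.05. The hepatocyte marker sum in BECs was 1908 to 4621 FPKM in Sham and 253 to 984 in BDL, without overlap. The part of that change in the interactions was not tested.

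Sult1e1, the estrogen sulfotransferase, separated the cell types only in ligated liver. It stood at 28.6, 66.9 and 33.5 FPKM in MPH BDL, at most at 0.176 FPKM in BECs BDL, and at most at 0.128 FPKM in the 6 Sham libraries (interaction 5.20, standard error 0.36, adjusted p = 0.00012). Sult1e1 reached 1 FPKM in MPH BDL alone and so passed the filter only through that group. Its interaction had to be large and is not read as support. Serpina7, the thyroxine-binding globulin, stood at 47.0, 98.2 and 303.5 FPKM in MPH BDL, against 4.58 to 8.31 in MPH Sham and 0.497 to 4.14 in BECs of either kind (4.16, adjusted p = 0.047). Cyp3a13, a P450 enzyme, and Steap4, a metalloreductase, shifted toward MPH by 3.59 and 2.64. The call of Serpina7 was lost in most settings tried, with an adjusted p of 0.065 to 0.108 without any 1 of the MPH Sham libraries.

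Other genes had a smaller biliary lead after ligation. S100g, a calcium-binding protein gene, stood at 67.5, 95.8 and 36.8 FPKM in BECs Sham, and at 1.48, 4.91 and 1.62 in BECs BDL against 1.83, 1.85 and 4.46 in MPH BDL. The BDL groups overlapped, and the interaction was 5.80 (standard error 0.59, adjusted p = 0.0023). Spink4, a gut protease inhibitor, stood at 47.4, 189 and 76.6 FPKM in BECs Sham, at 2.17, 5.86 and 2.24 in BECs BDL and at most at 0.332 in MPH of either kind (4.38, adjusted p = 0.010). Its call was lost with a pseudocount of 0.1 or 0.01.

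Another set had a smaller hepatocyte lead after ligation. Bdh1, which makes the ketone body hydroxybutyrate, stood at 63.8, 73.5 and 74.8 FPKM in MPH Sham and at 10.2, 6.53 and 8.65 in MPH BDL, within the 5.68 to 15.1 of BECs BDL (-3.21, standard error 0.53, adjusted p = 0.019). Slc22a7, an organic anion carrier, stood at 16.8, 12.2 and 45.2 FPKM in MPH Sham and at 1.18, 0.576 and 0.621 in MPH BDL, too low for the BDL test (-3.46). The sulfotransferase genes Sult5a1 and Sult2a8 and the dehydrogenase gene Sdr9c7 shifted by -3.33, -4.86 and -3.01. Slc22a7, Sult5a1 and Sult2a8 passed the filter only through MPH Sham, where they were high. Their interactions are a description and are not read as support. Lifr, the receptor of leukemia inhibitory factor, stood at 65.6, 77.7 and 139 FPKM in MPH Sham and at 16.3, 18.2 and 9.68 in MPH BDL, still above the 5.64 to 6.71 of BECs BDL (-2.05).

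Few list members passed this test. Among the cell cycle genes the median difference was -1.40 in BDL and -0.07 in Sham, and Ccnb1, of mitotic entry, had the only interaction that passed. For the acute phase genes the medians were 6.35 and 4.14, and Cp and Steap4 passed. Among the matrix and fibrosis genes Plaur, the urokinase receptor, passed toward MPH, with differences of -3.35 in BDL and -6.09 in Sham. In simulated counts the interaction test recovered 95.3% of genes changed 8-fold, 49.2% of those changed 4-fold and 4.23% of those changed 2-fold. The simulation gave every gene the same dispersion and changed only genes above a minimum of reads. These shares therefore need not hold for the libraries here. The count of 237 ranged from 58 without MPH BDL replicate 2 to 359 without MPH BDL replicate 1, and was 64 without BECs Sham replicate 1, 66 without BECs Sham replicate 2, 99 without MPH Sham replicate 1, and 106 and 150 without BECs BDL replicates 1 and 2.

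**Figure D5:**
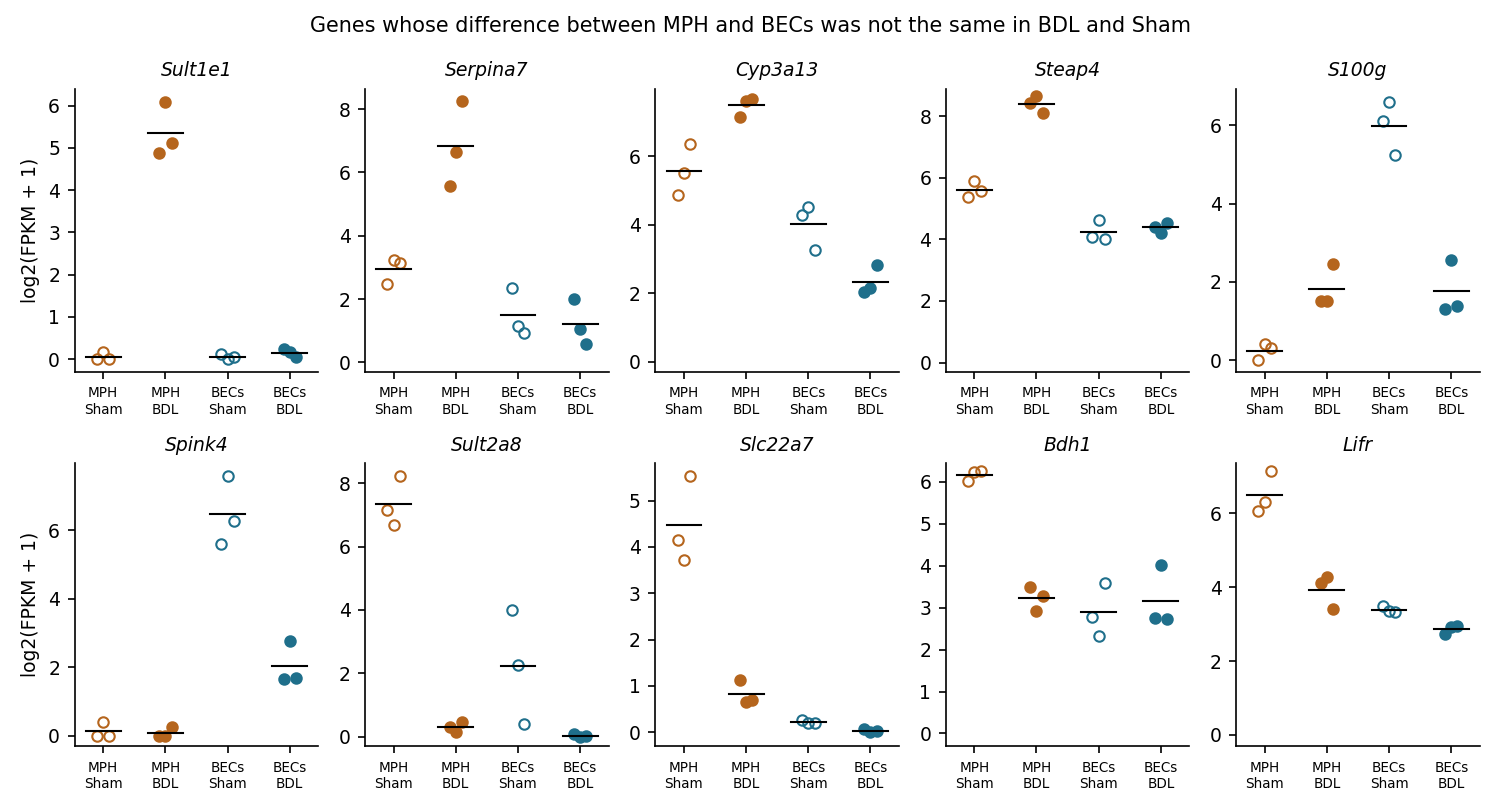
Level of 10 genes in each of the 12 MPH and BECs libraries, as log2(FPKM + 1), with open points for Sham, filled points for BDL and a bar at the mean of 3. Sult1e1 reached 28.6 to 66.9 FPKM in MPH BDL only, S100g and Spink4 were high in BECs Sham only, and Bdh1, Slc22a7 and Sult2a8 were high in MPH Sham.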

How the data were processed

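Polyadenylated RNA of liver cells was sequenced, and the deposited table holds FPKM values per gene for 18 libraries, 6 of which (3 MPH BDL and 3 BECs BDL) enter the main comparison. Per the submitters' processing notes, the authors used CASAVA 1.8, fastp, HISAT2 2.0.5, featureCounts 1.5.0-p3 and DESeq2 1.20.0 with GRCm38/mm10, but how the FPKM values were scaled is not stated. Groups follow the labelled cell type and treatment. The members and gene lists were chosen with earlier results of these data known, and 7 lists were added after seeing the data.

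Genes that reached 1 FPKM in 3 or more of the libraries compared were tested with limma 3.58.1 (R 4.3.3) on log2(FPKM + 1), with a trended, robust variance, 2-sided, and called where the Benjamini-Hochberg adjusted p was under 0.05. Every adjusted p in the text is limma's, and log2 differences are MPH minus BECs on this scale, which understates the change of low genes. The interaction with Sham was fitted over 12 libraries. The script was tested on simulated data, where the comparison in ligated liver recovered 30%, 97.3% and 100% of genes changed 2-, 4- and 8-fold. Every simulated gene had the same dispersion, and only genes above a minimum of reads were changed, so these shares check the script and not these libraries.

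FPKM times exon length gave whole reads within 0.02 of a read for 97.6% to 98.1% of values under 200 reads, and recovered depths of 17186598 to 17894473 reads in MPH and 15451622 to 17497762 in BECs. The recovered reads served the scaling alternatives, the voom alternative and the simulated counts, and not the main test. A quasi-likelihood count test on recovered reads was not run, since the deposited values are FPKM. Symbols that occur more than once (105) and 27 that look like dates were kept as separate genes.

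Named genes were, for each direction, the 10 largest called differences at a mean of at least 5 FPKM with groups that do not overlap; a set of fixed hepatocyte, biliary and bile acid genes; up to 4 called members of each list; the 5 largest interactions each way; and the 4 pairs of related genes with the largest shift. Some items that this rule names are not reported here. Other list members named as examples were chosen after their values were seen. Alternatives were other pseudocounts, filters, scalings and variance models, and leaving out each library. Leaving out replicate 3 of each group and adding the Xist class were chosen after seeing the data. The 18 libraries include none of hepatic stellate cells, and no such library was analysed here.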

Additional observations from a re-analysis of the deposited data

Results flagged for a closer look

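The genes below had a difference between MPH and BECs that was not the same in ligated and Sham liver, by limma's interaction over 12 libraries. The values are the interaction on the log2 scale, positive toward MPH after ligation. The hepatocyte marker sum in BECs was 1908 to 4621 FPKM in Sham and 253 to 984 in BDL, and its part in these values was not tested.

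Toward MPH after ligation stood S100g (5.80), Sult1e1 (5.20), Spink4 (4.38), Serpina7 (4.16) and Cyp3a13 (3.59), all described above. Steap4 (2.64) followed, at 48.6 ± 8.89 FPKM in MPH Sham, 340 ± 63.4 in MPH BDL, 18.3 ± 4.86 in BECs Sham and 17.6 to 22.2 in BECs BDL (mean ± SD, n = 3).

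A smaller biliary lead after ligation was found for the cytokine gene Clcf1 (2.60), Gpm6a (2.46), Hbegf (2.30) and the tetraspanin gene Cd9 (1.82). Cldn8 also had a positive interaction (1.29), at a mean of 12.1 FPKM in BECs Sham and 3.86 in BECs BDL. Its MPH means were low (0.153 FPKM in Sham and 0.0264 in BDL), and the sign of its interaction depended on the pseudocount. Hbegf, a ligand of the EGF receptor, stood at 258, 291 and 213 FPKM in BECs Sham and 140, 157 and 189 in BECs BDL, while MPH went from 3.17 to 12.2 FPKM in Sham to 20.6 to 27.4 in BDL. The nuclear receptor gene Nr1i3 (1.08) had a larger lead in MPH after ligation, with 1.11 to 1.68 FPKM in MPH Sham and 3.27 to 4.26 in MPH BDL.

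Toward BECs after ligation stood Sult2a8 (-4.86), Slc22a7 (-3.46), Sult5a1 (-3.33), Bdh1 (-3.21), Sdr9c7 (-3.01) and Lifr (-2.05). Of these, Sult2a8, Slc22a7 and Sult5a1 met the filter only through MPH Sham and are not read as support. Sult5a1 stood at 17.4 ± 1.27 FPKM in MPH Sham and 0.764 ± 0.0509 in MPH BDL, and Sult2a8 at 179 ± 104 and 0.237 ± 0.135 (mean ± SD, n = 3).

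S100g passed the test in every setting tried that allowed it, while the calls of Serpina7, Sult2a8, Sdr9c7, Hbegf, Nr1i3 and Lifr were lost in many. Sult1e1 and Sult5a1 also passed in every setting that allowed them. Sult1e1 met the filter only through MPH BDL and Sult5a1 only through MPH Sham, so both had to differ.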

How the results depend on the processing

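The count of 6812 genes called between MPH and BECs was 4511 with a filter of at least 5 FPKM, 1815 where the difference had to exceed 1 log2 unit, and 5292 to 7302 when each library was left out. The share of calls on the MPH side, 49.4%, became 12.3% with a common FPKM sum, 17.6% with scaling to recovered reads and 17.2% with voom on recovered reads, and 47.6% to 49.8% when each library was left out. The 237 interactions became 112 and 102 with pseudocounts of 0.1 and 0.01, 86 with no filter, 122 with a filter of at least 5 FPKM, 5 where the interaction had to exceed 1 log2 unit, and 58 to 359 when each library was left out. The 9 exchanged pairs of related genes were 7 to 9, and the 21 pairs without overlap 21 to 22, when each library was left out, and 8 to 13 and 21 to 22 under the other scalings. Il6st was called higher in MPH as deposited (0.63, limma adjusted p = 0.014). It turned to -0.38 with a common FPKM sum and to -0.12 with scaling to recovered reads and with voom, which move the median of all genes. The interaction of Cldn8, whose MPH BDL values were 0, 0 and 0.0791 FPKM, turned to -1.24 with a pseudocount of 0.01. The cause was not tested. Of the other values of named genes, 4272 kept a call in the same direction or stayed without a call in either direction, 146 lost the call and 10 gained it. Of the other interaction values of named genes, 324 kept the call and its direction and 130 lost the call. Of the list counts, 934 stayed within 1.5 times and 86 did not. No paired analysis was possible because the groups compared share no number in the library titles.

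Having 3 libraries a group, of unstated origin, limits the precision, and MPH replicate 3 and BECs replicate 3 stand apart. The scaling of the deposited FPKM is not stated and sets the balance of directions. A level near 0 FPKM cannot be told from a few reads of other cells.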

Other observations

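Lists added after seeing the data described other signals between the cell types. Of 5 EGF receptor ligands tested, 4 were higher in BECs (median -2.70), among them Hbegf and Areg (-2.70 and -3.31). The receptor genes divided: Egfr stood at 12.3, 42.1 and 76.2 FPKM in MPH and at 5.39, 3.98 and 6.81 FPKM in BECs (2.49, adjusted p = 0.016), while Erbb2 stood at 0.856, 0.898 and 0.733 FPKM in MPH and at 7.92, 8.78 and 11.1 FPKM in BECs (-2.48). The call of Egfr was lost without MPH replicate 2 (adjusted p = 0.053) or BECs replicate 2 (0.057).

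Of 5 ligands of the interleukin 6 family, 4 were higher in BECs (median -2.13), with Lif at 47.1, 30.3 and 16.3 FPKM in BECs and at most at 0.641 in MPH. The receptor genes Il6ra, Lifr and Il6st were higher in MPH by 1.44, 1.06 and 0.63, and Osmr was higher in BECs (-1.06). With a common FPKM sum none of the 5 receptors was higher in MPH and 3 were higher in BECs. Of 12 Wnt ligands and R-spondins, 7 were higher in BECs and 2 in MPH (median -1.10), with Wnt7b and Wnt4 at -3.28 and -2.33. Of 18 annexins and S100 genes, 10 were higher in BECs and 1 in MPH (median -1.47), with Anxa13 at -5.53.

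Whole gene families, chosen by name, showed the same contrast in part. Of 60 cytochrome P450 genes tested, 43 were higher in MPH and 4 in BECs (median 2.94), and of 15 Ugt genes, 13 and 2 (median 3.71). Serpin clade A genes divided 13 to 0 (median 5.01) and serpin clade B genes 0 to 5 (median -1.99), of 18 and 7 tested. Collagen genes were higher in BECs in 22 of 27 and in MPH in 3 (median -1.90). Of 83 ribosomal protein genes, 2 were higher in MPH, 7 in BECs and 74 did not pass (median -0.30). Families were counted on the values as deposited only, and how these splits change under the other scalings was not tested.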
